A study of Mus musculus with 42 samples.

Results

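The comparison described here is the addition of NMN to late 2-cell mouse embryos that were treated with FK866, measured by RNA-seq. Its members are the genes with at least 1 FPKM per library (FPKM, reads scaled to the length of the gene and the depth of the library) in embryos with FK866 alone or in embryos with FK866 and NMN, which were 8605 of the 15737 genes listed. Both groups were ICR embryos from superovulated young adult females, cultured from the zygote in KSOM medium and taken 48 h after hCG, and both received 0.01 µM FK866. The FK866+NMN group also received 10 µM NMN. Each group had 2 libraries, and each library was made from 3 pooled embryos with the zona pellucida removed. Late 2-cell embryos labelled wild type and untreated, to which the study's methods give DMSO as vehicle (control, 2 libraries), and early 2-cell embryos taken at 34 h (2 libraries) are shown beside them. The labels of the treated groups give no genotype. The study calls the libraries of a group biological replicates, but neither it nor the labels say whether they came from separate collections of embryos, so p-values measure only the spread between these libraries.

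FK866 inhibits NAMPT, the enzyme that turns nicotinamide into NMN (nicotinamide mononucleotide) in the salvage pathway of NAD+ synthesis. NMN is the product of that step, and NMNAT enzymes turn it into NAD+, so NMN enters the pathway after the block. NAD+ is a carrier of electrons in glycolysis and respiration and a substrate that sirtuins and PARP enzymes consume. At the 2-cell stage the mouse embryo degrades its maternal mRNA and switches on its own genome, first a small set of genes that includes Dux and the Zscan4 genes, then many more genes, among them those for ribosomes, RNA processing and protein turnover. The comparison asks which transcripts differ when the product of the blocked step is supplied.

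The deposited table holds 1 FPKM column per group, and each column is the sum of its 2 libraries. The reads of both libraries could be separated for 97.6% of the values above 0 in FK866 and 97.5% in FK866+NMN, because each value is a sum of whole reads. In each group A stands for the deeper library and B for the other. The letters pair nothing across groups, and values of a group are written below as library A/library B. The separated libraries held 8963343 and 8129784 mapped reads in FK866 and 8466640 and 5350013 in FK866+NMN. The FK866+NMN libraries stood apart: 5506 and 6504 genes had reads, against 8258 and 8467 in FK866 and 7608 and 8403 in control libraries of 6523488 and 4164896 reads. Pearson's r across 8215 genes, on log2(FPKM + 1), was 0.578 between the FK866+NMN libraries, 0.755 between the FK866 libraries and 0.844 between the control libraries. It was 0.613 to 0.686 between FK866 and FK866+NMN libraries and 0.62 to 0.691 between control and FK866+NMN libraries, so each FK866+NMN library was nearer to the libraries of the other groups than to its own replicate. These are correlations across genes, which are not independent replicates. Library A of FK866+NMN held the fewest genes although it was the deeper of its pair, and library B was shallower than both FK866 libraries. Why fewer genes had reads was not tested. Counts of higher and lower members without library A and without library B of FK866+NMN are given, mostly in brackets, with the gene groups that follow the cell type markers. Counts without an FK866 library are given where that moved a count by over 1.5 times and by at least 3 members.

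All 4 libraries carried Dppa3 and Zscan4d, but none had reads for every gene listed for the 2-cell program. Of 22 such genes with library values, 20/21 had reads in FK866 and 17/19 in FK866+NMN. Their summed level was 991/1096 FPKM in FK866, 606/1108 FPKM in FK866+NMN and 1301/908 FPKM in controls. Dppa3, a maternal factor, was at 1742/1519 FPKM in FK866 and 1574/1613 FPKM in FK866+NMN. Zscan4d was at 75.3/148 and 49.6/132 FPKM, above the 29.6 FPKM of early 2-cell embryos. Of 14 cumulus and granulosa cell markers listed, 2 were expressed, and their summed level was 4.29/6.61 FPKM in FK866 and 17.1/5.27 FPKM in FK866+NMN. Of the 2 expressed markers 1 was past 2-fold higher with NMN, with overlap between libraries. Of all 14, 3/4 had reads in the FK866 libraries and 4/2 in the FK866+NMN libraries. Foxl2, Cyp11a1, Star, Nr5a1, Inhbb, Ptgs2 and Ptx3 were at 0 in all 4 libraries. In bulk samples such as these, fewer cells of a type and less RNA per cell cannot be told apart. Of 6 blood and epithelial markers, 3 were expressed, and the summed level was 42.6/20.7 FPKM in FK866, 0.308/5.85 FPKM in FK866+NMN and 27.4/32.9 FPKM in controls. The alpha globin genes carried that difference: Hba-a1 was at 22.3/10.5 FPKM in FK866 and at 0 in both FK866+NMN libraries. The globin copies share reads, Ptprc was at 0 in all 4 libraries, and the part of blood cells in any result was not tested.

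With NMN, 1623 genes were past 2-fold higher (18.9% of 8605) and 2862 were past 2-fold lower (33.3%), on the log2(FPKM + 1) scale. The median log2 difference of all genes was -0.24, and when the differences were centred on it the counts were 2023 higher and 2319 lower. Without library A of FK866+NMN they were 1472 and 3148, and without library B 1412 and 4155 with a median of -1.12. The spread between libraries was of the same size as the difference between groups: of 8215 genes with values in all 4 libraries, 39.1% were past 2-fold between the FK866 libraries, 52.1% between the FK866+NMN libraries and 52.4% between the groups. Both libraries with NMN lay above both libraries of FK866 for 9.68% of these genes and below them for 25%. They did so past 2-fold for 465 genes higher (5.66%) and 1692 genes lower (20.6%). limma on the 4 separated libraries called 0 genes at an adjusted p under 0.05, and its smallest adjusted p was 0.672. At an unadjusted p under 0.05 it had 542 genes (6.6%), of which 98 were higher (1.19%) and 444 lower (5.4%). The values below are therefore differences between these libraries, and none of them passed a test over all genes.

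**Figure D1:**
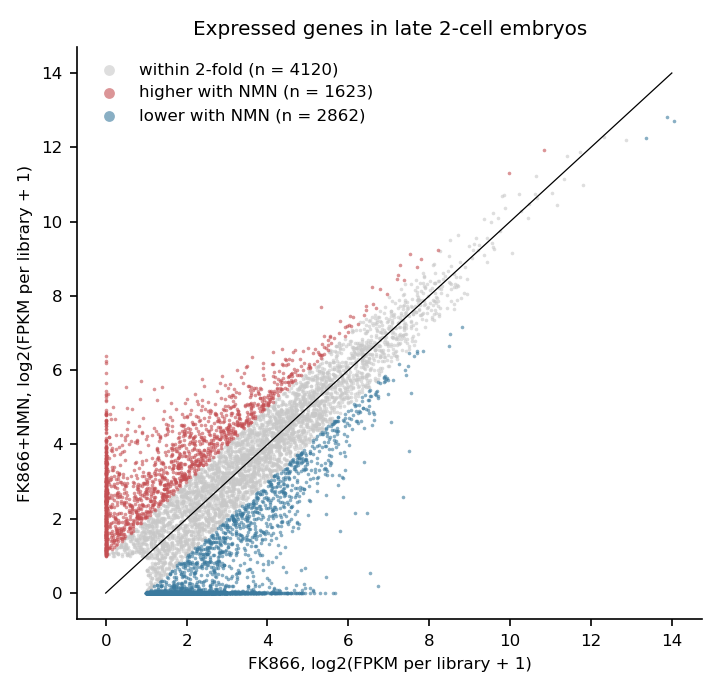
Level of each of the 8605 expressed genes in FK866 (x axis) and in FK866+NMN (y axis), as log2(FPKM per library + 1), with genes past 2-fold in colour and the line of equality. The 2862 lower genes crowd along the bottom edge, where 1585 of them were listed at 0 with NMN, and fewer genes depart from the line at high levels.

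Most lower genes were scarce transcripts. Below a mean of 3 FPKM, 56.7% of 3048 genes were lower and 17.4% higher, whereas from 10 FPKM upward 526 of 3138 genes were higher and 431 lower, with a median log2 difference of 0.06. At 100 FPKM or more, 27 of 406 genes were higher and 16 lower. Of the lower genes, 55.4% were listed at 0 in FK866+NMN, whereas 24.8% of those past 2-fold higher had no reads with FK866. By the filter and scale used, every tested gene at 0 in either group counted as past 2-fold. The 1585 lower and 402 higher genes at 0 were thus called by that rule, whatever the size of the change. Below a mean of 3 FPKM, 1294 of the 1728 lower genes were of this kind. Among genes with reads in all 4 libraries, a filter that removes every gene at 0 in either group, 576 were higher and 497 lower. Of 412 long intergenic RNAs 24.5% were higher and 46.6% lower, of 234 antisense RNAs 27.4% and 48.3%, and of 6392 protein-coding genes 18% and 31.5%. These shares were not tested against each other.

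**Figure D2:**
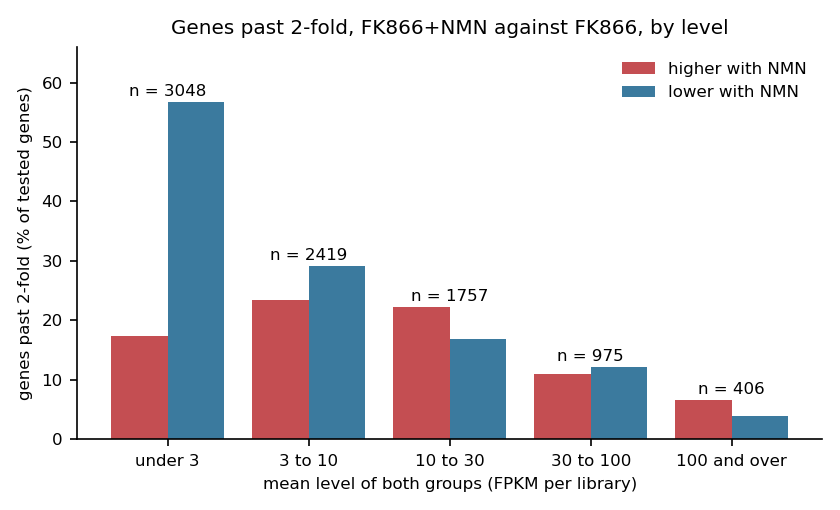
Share of tested genes past 2-fold higher or lower with NMN (y axis, percent) in 5 classes of mean level (x axis, FPKM per library), with the number of genes above each class. Lower genes outnumber higher genes below 10 FPKM, and from 30 FPKM upward both shares are 12.1% or less.

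The genes that separated best with NMN higher were absent or nearly absent with FK866 alone. Rab19 (chr6:39381175-39390380, GRCm38, plus strand), a small GTPase of membrane traffic, had no reads in either FK866 library and was at 30.6/15.3 FPKM with NMN, from 408 and 129 reads. It was at 4.87/13.1 FPKM in controls and 0 FPKM in early 2-cell embryos. Fancg (chr4:43002343-43010506, minus strand), part of the Fanconi anaemia complex that repairs DNA crosslinks, had no reads with FK866, 14/8.42 FPKM with NMN and 2.42/4.87 FPKM in controls. Xpa (chr4:46155347-46196311, minus strand), a damage-binding factor of nucleotide excision repair, was at 0.177/0.0649 FPKM with FK866, 18.8/9.18 FPKM with NMN and 13.9/9.13 FPKM in controls. So 3 genes that the controls carried, 2 of them for DNA repair, were at or near 0 with FK866 and present in both libraries with NMN. Krtcap2, a subunit of the oligosaccharyltransferase, behaved alike, at 0/0 FPKM with FK866, 10.6/13 FPKM with NMN and 10.4/4.1 FPKM in controls. Cdk17, a cyclin-dependent kinase, was at 0/0, 6.77/7.2 and 6.08/2.87 FPKM in the same order. Krtcap2, Xpa and Cdk17 each share exon sequence with a gene on the opposite strand (Trim46, Ncbp1 and Elk3), and whether reads were counted by strand is not given in the sources used here.

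Klhl36, Dbx1 and Ptpn22 were low in controls too. Klhl36, a kelch-family adaptor, had no reads with FK866 or in controls and 26.5/7.67 FPKM with NMN. Dbx1, a homeobox gene of the developing brain, was at 1.12/0 FPKM with FK866, 47/12.9 FPKM with NMN and 0/0 FPKM in controls. Ptpn22, a tyrosine phosphatase known from lymphocytes, was at 0.478/1.23 FPKM with FK866, 20.4/18.2 FPKM with NMN and 1.11/1.49 FPKM in controls. These levels with NMN lay above those of both other late 2-cell groups. Endod1 was at 0.552/0.106 FPKM with FK866, 15.4/14.1 FPKM with NMN and 1.58/2.89 FPKM in controls, and the ER exit site gene Sec16b at 0/0.296, 13.1/11.1 and 0/3.55 FPKM. The complement regulator Susd4 was at 0.0289/0.829, 27.7/13.3 and 0/2.05 FPKM in the same order, and the lysosomal protease gene Ctss at 0.329/1.09, 21.4/11.7 and 1.13/1.77 FPKM. In these 4 genes, too, both NMN libraries lay above all FK866 and control libraries. The mitochondrial protease gene Spg7, at 0/1.09 FPKM with FK866 and 11.3/20.8 FPKM with NMN, was carried by controls at 5.9/4.15 FPKM. Pira2, a receptor gene with close paralogues, was at 0/0.782, 20.6/13.9 and 3.68/0 FPKM. Fbxw13, an F-box gene with close paralogues, was at 0/0, 47.6/5.56 and 20.1/0 FPKM, so that 1 control library lay between those with NMN. The reads of Pira2 and Fbxw13 may be split among copies.

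Genes that separated best with NMN lower were well expressed with FK866 and had almost no reads with NMN, a pattern that the choice by the widest gap favours. Cstb (chr10:78425669-78427622, plus strand), the cystatin that inhibits lysosomal cathepsins, was at 116/67.1 FPKM with FK866 and 0/0.93 FPKM with NMN, and limma gave it an unadjusted p of 0.000889. Controls had 84.9/195 FPKM. Snrnp35 (chr5:124483134-124491124, plus strand), a protein of the minor spliceosome, was at 33.1/50 FPKM with FK866, 37.2/52.8 FPKM in controls and had no reads with NMN. Dsn1, a kinetochore protein, was at 24.8/43.5 FPKM with FK866, 0.0704/0 FPKM with NMN and 31.6/45 FPKM in controls. These 3 transcripts overlapped the control libraries with FK866 and were near 0 with NMN. The same held for Aprt, which salvages adenine, at 34.9/50.3 FPKM with FK866, 0/0.694 FPKM with NMN and 123/46.4 FPKM in controls. Sapcd2, which acts in spindle orientation, was at 27.2/24.3, 0/0 and 37.7/33.1 FPKM in that order.

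A few of the lower genes had been higher with FK866 than in controls. Blcap, an imprinted gene, was at 20.6/22.4 FPKM with FK866, 2.97/2.37 FPKM in controls and had no reads with NMN. Scoc was at 18.6/19.4 FPKM with FK866, 6.81/4.99 FPKM in controls and 0 with NMN. Nanos2, an RNA-binding protein of male germ cells, was at 23.4/25.4 FPKM with FK866, 3.14/7.22 FPKM in controls and 0/0.12 FPKM with NMN. For these 3 genes the FK866+NMN libraries lay below the controls as well as below FK866. Ninj2 (33.8/34.4 FPKM with FK866 and 0.126/0 with NMN), Lzic (25.6/27.2 and 0/0), the Golgi transport gene Golt1b (29.1/26.8 and 0/0.133), the V-ATPase gene Atp6v0b (24.8/34.2 and 0/0.182), the mitochondrial ribosome gene Mrpl41 (39.5/25.3 and 0/0.21), the lipid transporter gene Mfsd2a (39.5/17.8 and 0/0) and Dok4 (18/17.4 and 0/0) completed the set.

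**Figure D3:**
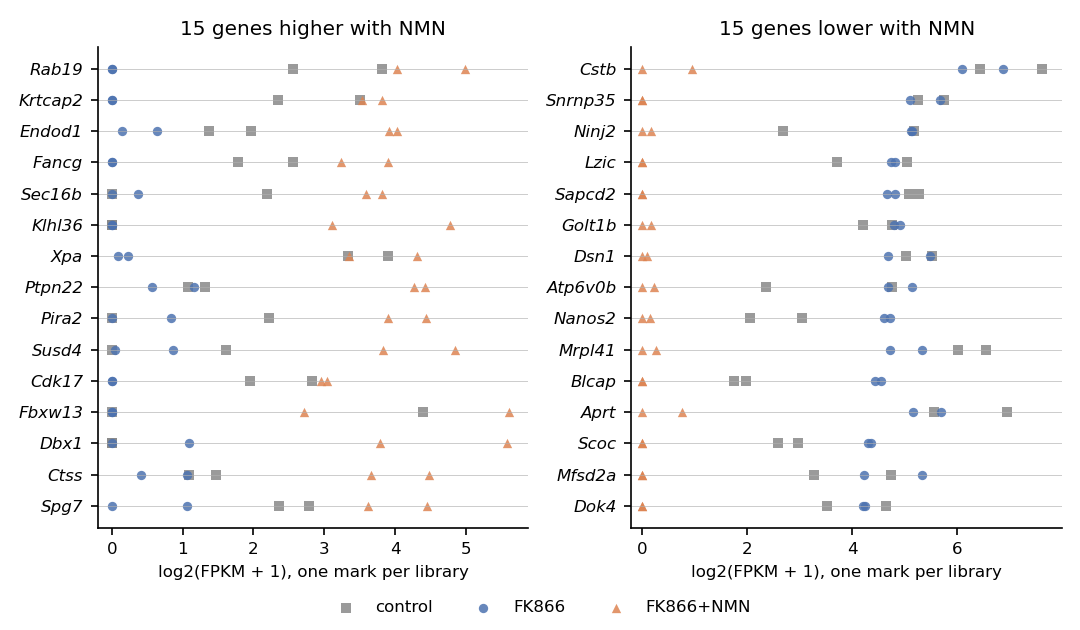
Level in each library, as log2(FPKM + 1) on the x axis, of the 15 genes higher and the 15 lower with NMN whose groups were farthest apart, with 2 marks per group for control, FK866 and FK866+NMN. In the left panel the FK866 marks sit at or near 0, and in the right panel the FK866+NMN marks do. The choice by the widest gap favours genes near 0 in 1 group.

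Abundant genes moved by smaller factors. The following belong to the 15 most abundant named protein-coding genes per direction that were past 2-fold and whose libraries did not overlap, a set chosen after the values were seen. Mtmr2, a phosphoinositide phosphatase, was at 108/80.8 FPKM with FK866 and 408/191 FPKM with NMN, a log2 difference of 1.66, and at 71.5/67.9 FPKM in controls. Prdx1, a peroxidase that removes hydrogen peroxide, was at 102/68.5 FPKM with FK866, 239.6/178 FPKM with NMN, 37.7/65.6 FPKM in controls and 371 FPKM in early 2-cell embryos. Ooep, a component of the subcortical maternal complex of the oocyte, was at 28.3/28.1 FPKM with FK866, 119/61.8 FPKM with NMN, 23.1/30.4 FPKM in controls and 719.9 FPKM in early 2-cell embryos. Prdx1 and Ooep are thus transcripts of the earlier embryo whose level with NMN lay between FK866 and the early 2-cell stage. This did not hold for the whole set. Npl, Taldo1 and Iscu were at 2.28, 11.4 and 17.1 FPKM in early 2-cell embryos, below both FK866 and FK866+NMN. Chchd3, which shapes mitochondrial cristae, was at 35.5/18 FPKM with FK866 and 120.3/36.2 FPKM with NMN. Iscu, the scaffold for iron-sulphur clusters, was at 46/31.8 and 77/80.7 FPKM, and Taldo1 of the pentose phosphate pathway was at 33.1/49.7 and 50.1/121 FPKM. The others were Trim75 (77.2/126 and 266/143 FPKM), Npl (52.4/80.1 and 204/86.2), the secreted protease gene Htra1 (30.6/40.2 and 129/58.6), the interferon-induced gene Ifitm3 (55.1/20.9 and 77.7/93.2), Kdelr1, a receptor that returns proteins to the ER (21.4/41.8 and 43.5/97.3), the F-box paralogues Fbxw18 (56.5/80.8 and 257/87.2) and Fbxw16 (27.2/22.3 and 154/30), and Cnot2 and Nlrp4a, which are described with their groups.

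Among abundant lower genes, Unc50 was at 367/345 FPKM with FK866 and 76.7/124 FPKM with NMN, a log2 difference of -1.82. Ciao2b, which delivers iron-sulphur clusters to target proteins, was at 461/270.1 FPKM with FK866 and 109/139 FPKM with NMN. Selenos, a selenoprotein of ER-associated degradation, was at 209/148 FPKM with FK866, 57.4/78.7 FPKM with NMN and 336/299 FPKM in controls. In these 3 genes every library with NMN lay below every library of FK866, with no library near 0. Aurka, a mitotic kinase, was at 136/115 and 27.2/77 FPKM and at 151/175 FPKM in controls. Orc6, a subunit of the origin recognition complex, was at 159/78.5 FPKM with FK866, 75.2/38.3 FPKM with NMN and 262/263 FPKM in controls. B2m, the light chain of MHC class I, was at 111/125 and 23.3/77.2 FPKM. The others were Rnf7, a subunit of cullin ubiquitin ligases (250.3/208 and 39.4/141 FPKM), Creb3l4 (126/209 and 63.3/63.5), the small GTPase gene Rab20 (136/206 and 41.7/72.5), Arpc2 of the actin-nucleating Arp2/3 complex (127/121 and 6.16/103), the microtubule-severing gene Katna1 (145/89.6 and 52.1/59.4), the selenoprotein gene Selenow (90/148 and 29/74.4), Rps13 (113/121 and 55.7/54), and Cox6a1 and Nip7, which are described with their groups. Btg4, the adaptor that brings the CCR4-NOT deadenylase to maternal mRNA, was past 2-fold higher, at 1822 FPKM per library with FK866 and 3872 FPKM with NMN. The libraries of Btg4 could not be separated, and Ciao2b, Orc6, Cnot2 and Dok4 overlap genes on the opposite strand.

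The oocyte Nlrp4 and Nlrp9 genes were higher as a group. These are NLR-family genes, most of them on chromosome 7, that are expressed in oocytes and early embryos. Of 8 members, all expressed, 5 were past 2-fold higher and 0 lower, beside 18.9% and 33.3% of all genes, and their median log2 difference was 1.06 beside -0.24 for all genes. Promoters of the members that moved together are shown here, from 250 bases before to 50 bases after the annotated start, from RefSeq on GRCm38.p6. They stand beside promoters of genes for ribosome production, the group with the lowest median among those with at least 8 expressed members. Capitals mark matches on either strand to the letters TATAAA of the box that carries that name, to the 5 letters that name the CCAAT box, or to the letters GGGCGG of the GC box. The regions are chr7:26434863-26435162 for Nlrp4a, chr7:6044911-6045210 for Nlrp4c and chr7:20007773-20008072 for Nlrp9b, all on the plus strand, and chr1:59684756-59685055 (plus strand) for Nop58 and chr1:121567931-121568230 (minus strand) for Ddx18. RefSeq lists a second start for Nlrp4a, which is not printed, and Nlrp4g has no entry.
Nlrp4a: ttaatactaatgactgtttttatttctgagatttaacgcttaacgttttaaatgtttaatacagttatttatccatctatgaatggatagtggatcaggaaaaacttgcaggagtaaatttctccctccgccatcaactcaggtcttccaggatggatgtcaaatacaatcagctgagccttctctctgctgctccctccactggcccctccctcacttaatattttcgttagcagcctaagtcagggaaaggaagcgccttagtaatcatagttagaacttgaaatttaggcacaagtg
Nlrp4c: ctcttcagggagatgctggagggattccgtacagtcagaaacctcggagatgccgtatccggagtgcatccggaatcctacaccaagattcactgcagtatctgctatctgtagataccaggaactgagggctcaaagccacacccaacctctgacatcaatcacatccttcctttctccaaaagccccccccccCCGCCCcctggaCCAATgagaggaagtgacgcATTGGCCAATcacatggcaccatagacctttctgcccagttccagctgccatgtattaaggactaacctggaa
Nlrp9b: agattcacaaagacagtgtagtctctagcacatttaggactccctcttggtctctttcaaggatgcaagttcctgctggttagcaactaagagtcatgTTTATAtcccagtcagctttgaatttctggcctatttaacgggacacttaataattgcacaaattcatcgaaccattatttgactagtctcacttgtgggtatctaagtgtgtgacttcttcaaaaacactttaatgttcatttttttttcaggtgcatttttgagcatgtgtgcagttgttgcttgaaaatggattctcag
Nop58: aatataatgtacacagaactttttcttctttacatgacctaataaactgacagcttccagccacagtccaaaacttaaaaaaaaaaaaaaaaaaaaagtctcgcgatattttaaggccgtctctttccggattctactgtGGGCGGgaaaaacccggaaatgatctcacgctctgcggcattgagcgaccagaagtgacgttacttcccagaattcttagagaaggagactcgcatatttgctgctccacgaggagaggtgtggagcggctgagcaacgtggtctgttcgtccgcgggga
Ddx18: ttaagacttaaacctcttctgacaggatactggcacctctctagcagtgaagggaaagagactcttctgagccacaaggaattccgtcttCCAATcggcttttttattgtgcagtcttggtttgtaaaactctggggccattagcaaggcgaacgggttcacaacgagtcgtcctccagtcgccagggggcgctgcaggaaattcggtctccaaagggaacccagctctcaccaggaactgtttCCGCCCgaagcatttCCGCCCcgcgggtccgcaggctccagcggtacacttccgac
The printed Nlrp4a stretch holds none of these letters, but the stretch at its second start, not printed, holds 1 CCAAT box and has 45.7% GC. Nlrp4c holds 3 CCAAT boxes and 1 GC box, and Nlrp9b holds 1 TATA box. Ddx18 holds 1 CCAAT box and 2 GC boxes, and Nop58 holds 1 GC box. GC content was 39.7%, 53% and 38% in the printed Nlrp stretches and 45.3% and 54.3% in the other pair, beside a median of 60.3% over 5313 promoters.

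Each Nlrp gene kept its own level. Nlrp4g was at 63.3/54.6 FPKM with FK866, 116/168 FPKM with NMN, 13.7/29 FPKM in controls and 182 FPKM in early 2-cell embryos. Nlrp4a was at 41.6/30.9, 87/62.3 and 27.4/34.3 FPKM in the 3 late groups and 194 FPKM in the early one. Nlrp9c was at 100.4/70.3, 196/133 and 46.6/27.9 FPKM, with a log2 difference of 0.94 that stayed just under 2-fold. In these 3 genes both NMN libraries lay above both FK866 libraries, and for Nlrp4g and Nlrp9c both FK866 libraries lay above both controls. Nlrp4c, at 2.2/3.71 FPKM with FK866 and 7.98/6.95 FPKM with NMN, had no reads in controls. Nlrp9b was at 10/10.1 and 36.7/11.1 FPKM, so that the lower NMN library barely exceeded the FK866 pair. Nlrp4b (11.2/4.55 and 33.2/6.2 FPKM), Nlrp4e (125/122 and 222/89.1 FPKM) and Nlrp9a (63.4/97.6 and 159/61.2 FPKM) overlapped between groups. In 4 of the 8 genes the difference was past 2-fold and both NMN libraries lay above both FK866 libraries, beside 5.66% of all genes. Summed over the 8 genes the level was 417/394 FPKM with FK866, 858/538 FPKM with NMN and 180.1/196 FPKM in controls. Library A of FK866+NMN carried the larger part: without it 2 of 8 were past 2-fold higher and the median was 0.38, and without library B 5 of 8 were and the median was 1.19. Nlrp4 and Nlrp9 copies are close paralogues and may share reads.

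Genes of ribosome production in the nucleolus and of the RNA exosome were lower as a group. Of 45 expressed members, 20 were past 2-fold lower (44.4%) and 2 higher (4.44%), and their median log2 difference was -0.82. Of the 44 with values in all 4 libraries, 19 were past 2-fold lower with both NMN libraries below both FK866 libraries, beside 20.6% of all genes. Among members with a mean of at least 10 FPKM, 9 of 25 were lower and 1 higher, with a median of -0.43. Of all genes at that level 13.7% were lower and 16.8% higher. The median was -0.70 without library A of FK866+NMN and -1.45 without library B, with 17 of 45 and 26 of 44 members lower and 5 and 3 higher. With a pseudocount of 5 it was -0.43. Nip7, a factor of large subunit assembly, was at 135/108 FPKM with FK866, 35.7/71.3 FPKM with NMN and 187/115 FPKM in controls. Ddx18, an RNA helicase of the nucleolus whose promoter is shown above, was at 86.8/75.2, 7.9/53 and 125/137 FPKM. Emg1, which methylates 18S rRNA, was at 27.9/32.4, 11.6/10.6 and 42.1/48.7 FPKM. The mean level of each of these descended from control to FK866 to FK866+NMN. Fibrillarin (Fbl), the methyltransferase of box C/D particles, was at 24.1/27.8 FPKM with FK866, 0.786/19.1 FPKM with NMN and 40.8/39.2 FPKM in controls. Nop58, another core protein of these particles, was at 9.15/2.62, 0.0659/0.382 and 27.9/17.6 FPKM.

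Exosome subunits and factors of small subunit assembly were among the lower members. Exosc3 was at 60.1/56.1 FPKM with FK866 and 17.1/30.5 FPKM with NMN, and the catalytic subunit Exosc10 was at 31.7/47.5 and 22.1/14.8 FPKM. Exosc2 (31.7/20.9 and 0.0818/10.1 FPKM), Exosc8 (24.5/21.3 and 1.04/6.86 FPKM), Exosc5 and Exosc9 were also past 2-fold lower without overlap. Ddx10 was at 10.7/13 FPKM with FK866 and 0/0.299 FPKM with NMN, and Wdr3 was at 4.04/15.8 FPKM with FK866 and had no reads with NMN. Noc4l, Gnl2, Utp11, Utp20, Ddx27 and Rrp15 were lower in both libraries as well. Not every member followed. Npm1, a nucleolar chaperone, was at 231/194 FPKM with FK866 and 230.1/166 FPKM with NMN, and Imp3, the most abundant member, was at 400.1/433 and 127/489.9 FPKM. Nop14 was higher, at 3.47/9.1 and 20.6/14.6 FPKM.

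**Figure D4:**
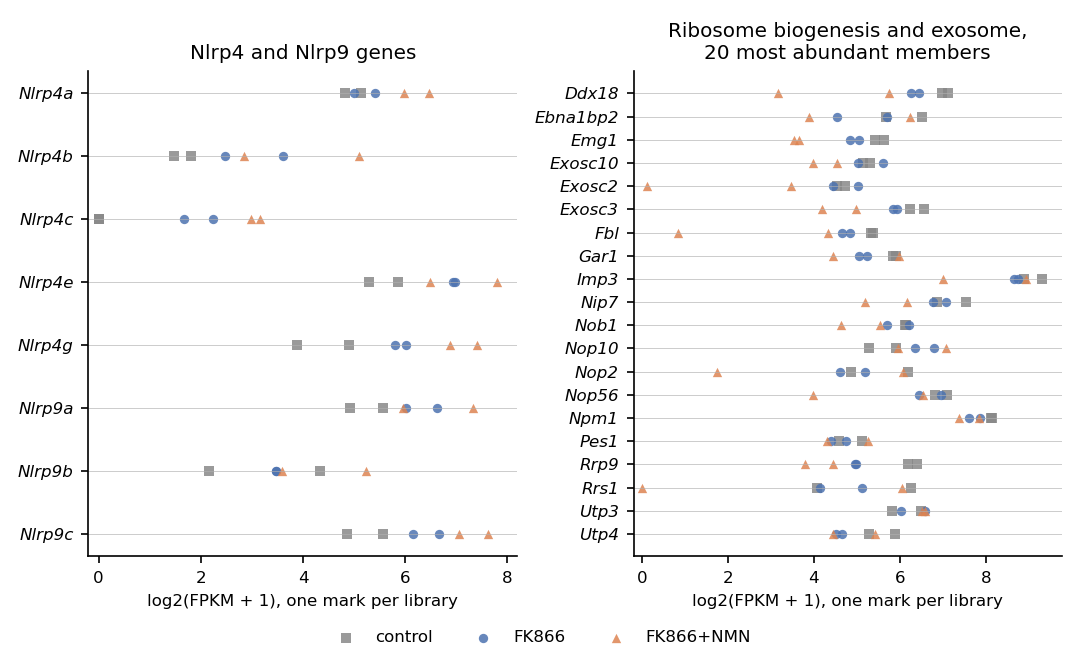
Level in each library, as log2(FPKM + 1) on the x axis, of the 8 Nlrp4 and Nlrp9 genes (left) and of the 20 most abundant ribosome biogenesis and exosome genes with values in all libraries (right), with 2 marks per group for control, FK866 and FK866+NMN. The FK866+NMN marks lie to the right of FK866 for Nlrp4a, Nlrp4c, Nlrp4g and Nlrp9c and to the left for Ddx18, Emg1, Exosc3, Exosc10 and Nip7.

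Cytosolic ribosomal protein genes had 0 of 54 members higher and 11 lower (20.4%; 2 and 8 without library A of FK866+NMN, 1 and 16 without library B), with a median log2 difference of -0.21. Rps27a was at 138/114 FPKM with FK866, 43.4/37.2 FPKM with NMN and 59.9/102 FPKM in controls. Rpl31 was at 66.9/104, 15.4/44.6 and 108/101 FPKM, and Rps20 was at 93.8/106, 21.9/57.8 and 165/165 FPKM. Rps13, Rpl11 and Rpl6 were past 2-fold lower in both libraries too. The share of lower members was below the 33.3% of all genes, most of whose lower genes were scarce. The members had a median of 86.4 FPKM with FK866. Of all genes 12.1% were lower at 30 to 100 FPKM and 3.94% at 100 FPKM or more. With a mean of at least 10 FPKM, 7 of 49 members were lower, beside 13.7% of all genes at that level. Ribosomal protein genes share reads with their pseudogenes. Of 35 mitochondrial ribosomal protein genes 7 were higher (20%) and 15 lower (42.9%), with a median of -0.79 (7 and 13 without library A of FK866+NMN, 9 and 23 without library B). The sign of that median rested on scarce members. With a mean of at least 10 FPKM, 3 of 15 were higher and 3 lower, with a median of 0.18. With reads in all 4 libraries, 5 of 16 were higher and 2 lower, with a median of 0.54. Mrps12 was at 19.8/13.7 FPKM with FK866 and 0/0.18 FPKM with NMN, whereas Mrps25 was at 8.33/13.6 and 42.6/23.2 FPKM and Mrpl37 at 5.48/0.993 and 20.6/15.3 FPKM. Of 35 translation initiation factors 5 were higher (14.3%) and 9 lower (25.7%; 1 and 8 without library A of FK866+NMN, 5 and 10 without library B). Eif3g was at 10.4/5.08 FPKM with FK866, 0/0.0942 FPKM with NMN and 80.1/55.8 FPKM in controls, and Eif2ak4, a kinase that senses missing amino acids, was at 10.5/13.9 FPKM and had no reads with NMN. Eif3b (6.2/8.75 and 31.5/11.7 FPKM) and Eif3k (14.7/11.7 and 56.4/17.3 FPKM) were higher.

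In RNA synthesis and splicing, the share of lower members was above the 33.3% of all genes in one list and below it in the other. Of 43 splicing genes 5 were higher (11.6%) and 16 lower (37.2%), with a median of -0.32 (6 and 15 without library A of FK866+NMN, 8 and 22 without library B, 10 and 14 without library A of FK866). With a mean of at least 10 FPKM, 9 of 25 splicing genes were lower and 2 higher, with a median of -0.46, much as for ribosome production. With reads in all 4 libraries, 7 of 27 were lower and 4 higher, with a median of -0.07. Snrpe, a core protein of the spliceosomal snRNPs, was at 98.1/83.3 FPKM with FK866, 39.8/23.4 FPKM with NMN and 281/121 FPKM in controls. Snrpb, of the same core, was at 17.7/24, 0/0.189 and 24.7/14.1 FPKM. Rbm8a, of the exon junction complex, was at 67.6/64.9, 25.9/33.1 and 125/90.7 FPKM. By contrast Sf3b5 was at 20.6/23.2 FPKM with FK866 and 65.8/34.5 FPKM with NMN, and Lsm7 was at 7.04/15.8 and 38.8/25.2 FPKM. Of 61 genes for RNA polymerases, Mediator and general factors 5 were higher (8.2%) and 16 lower (26.2%; 6 and 21 without library A of FK866+NMN, 8 and 31 without library B, 8 and 14 without library B of FK866). Polr1d, a subunit shared by RNA polymerases I and III, was at 72/88.1 FPKM with FK866, 29.5/40.2 FPKM with NMN and 107/101 FPKM in controls. Polr1e was at 23.2/31.8 and 9.06/11.7 FPKM, Polr2i and Polr3b had no reads with NMN, and Taf4 was at 66.9/60 and 0.204/29.4 FPKM. Nelfb, of the complex that pauses RNA polymerase II, was higher, at 0/3.4 and 48/9.37 FPKM.

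In the NAD+ pathway, 1 of 4 expressed genes of NAD+ synthesis and transport was past 2-fold, beside 52.1% of all genes in either direction, and it was lower (0 higher and 2 lower without library A of FK866+NMN, 0 and 2 without library B). Nmnat1, which converts NMN to NAD+ in the nucleus, was at 9.33/11.7 FPKM with FK866, 14/10.3 FPKM with NMN and 15.1/33.8 FPKM in controls. Nadk, which makes NADP+, was at 32.6/65.6 and 57/15 FPKM. The groups overlapped for both. Slc25a51, the carrier that brings NAD+ into mitochondria, was at 6.42/29 FPKM with FK866, 4.42/0.712 FPKM with NMN and 18.7/20.5 FPKM in controls, a log2 difference of -2.39. Of 9 NAD+ consumers 2 were higher (22.2%) and 2 lower (22.2%; 2 and 1 without library A of FK866+NMN, 1 and 3 without library B), beside 18.9% and 33.3% of all genes. Sirt1, an NAD+-dependent deacetylase, was at 79.3/55.1 FPKM with FK866, 92.3/53.3 FPKM with NMN and 86.6/66.2 FPKM in controls, so the groups overlapped. Parp1, which makes poly(ADP-ribose) at DNA breaks, was at 5.86/1.53 FPKM with FK866 and 0/1.52 FPKM with NMN, so that the nearest libraries were almost equal. Sirt2 was at 0/2.42 FPKM with FK866 and had no reads with NMN. Parp6 was higher, at 0.0575/1.96 and 6.37/5.63 FPKM, as was Parp3, at 0/0 and 0/5 FPKM. Of 6 deacetylase and corepressor genes 0 were past 2-fold (0 higher and 1 lower without library A of FK866+NMN, 1 and 1 without library B). Hdac1 was at 23.5/20.7 and 25.9/20.4 FPKM and Hdac2 at 10.7/16.2 and 28.4/3.09 FPKM. Of 6 acetyltransferase and acetyl-CoA genes Brpf1, a scaffold of acetyltransferases, was higher, at 12.4/18 and 22.8/44.9 FPKM, and Kat8 was lower, at 5.63/14.2 and 0/8.02 FPKM, with overlap. Without library A of FK866+NMN 1 of 5 was higher and 2 lower, and without library B the counts were the same.

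Genes of the 2-cell program did not move as one. Dux (listed as Duxf3), the factor that opens this program, was at 2.12 FPKM per library with FK866, 0.904 FPKM with NMN and 0.589 FPKM in controls, a log2 difference of -0.71. It was -1.14, past 2-fold, with a pseudocount of 0.1 and -0.27 with a pseudocount of 5, and its libraries could not be separated. The 6 Zscan4 genes and 3 Zscan4 pseudogenes, all expressed, had 0 members past 2-fold. Zscan4a was at 31/71.8 FPKM with FK866 and 21.8/73.2 FPKM with NMN, Zscan4b at 11/9.42 and 3.15/13 FPKM, and Zscan4c at 49.4/62.6 and 31/82.2 FPKM. Zscan4d was at 75.3/148 and 49.6/132 FPKM, Zscan4e at 8.77/15 and 4.94/11.1 FPKM, and Zscan4f at 97.3/103 and 73.4/111 FPKM. All 6 overlapped between groups, with library A of FK866+NMN below library B in each. In the whole list of 26 genes 6 were lower (23.1%) and 2 higher (7.69%), beside 33.3% and 18.9% of all genes, with a median of -0.39. Zfp352 was at 102/76 FPKM with FK866 and 0/59.3 FPKM with NMN, Tdpoz4 at 6.42/44.5 and 0/5.54 FPKM, and Tdpoz2 at 5.16/12.6 FPKM with no reads with NMN. Usp17ld was higher, at 2.86/0.0619 and 22.4/14.3 FPKM. The Zscan4, Tdpoz and Usp17l copies are near-identical, so their separate values are uncertain. Without library A of FK866+NMN the median of the list was 0.10, with 2 of 19 higher and 2 lower. Without library B it was -1.14, with 2 of 20 higher and 11 lower. The counts were 3 and 3 of 20 without library A of FK866, and 2 and 3 without library B of FK866.

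The Obox family of homeobox genes, which are expressed in oocytes and the early embryo, had 9 of 25 members higher (36%) and 2 lower (8%; 6 and 3 without library A of FK866+NMN, 11 and 11 without library B). Of all genes 18.9% were higher and 33.3% lower. Of the 9, 8 were Obox4 pseudogenes, which are near-identical in sequence. Obox4-ps12 was at 0/0.722 FPKM with FK866, 7.54/3.43 FPKM with NMN and 30.6 FPKM in early 2-cell embryos. Obox4-ps13 was at 0/2.7, 13.1/5.1 and 48.7 FPKM in the same order, and Obox4-ps35 went the other way, at 8.86/55.9 FPKM with FK866 and 0 with NMN. The protein-coding members, which carry most of the family's level, moved little or disagreed between libraries. Obox1 was at 334/255 FPKM with FK866 and 1013/192 FPKM with NMN, Obox2 at 169/179.9 and 284/115 FPKM, and Obox6, an embryonic member, at 353/249 and 125/238 FPKM. Library A of FK866+NMN alone put Obox1 past 2-fold. With a mean of at least 10 FPKM, 1 of 15 members was higher and 1 lower. Of 47 Pramel and Pramef genes 5 were higher and 6 lower, and 7 of them had separable libraries (1 and 1 without library A of FK866+NMN, 2 and 2 without library B, 0 and 1 without library A of FK866, 1 and 1 without library B of FK866). Pramel6 was at 11/21.5 and 39.4/35.3 FPKM and Pramel5 at 28.5/29.9 and 3.44/14.3 FPKM.

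Maternal factors went in both directions, as all genes did (18.9% higher and 33.3% lower). Of 22 genes that store or degrade maternal mRNA 6 were higher (27.3%) and 7 lower (31.8%; 2 and 6 without library A of FK866+NMN, 7 and 8 without library B, 2 and 9 without library A of FK866, 3 and 5 without library B of FK866). Subunits of the CCR4-NOT deadenylase were among the higher ones: Cnot2 was at 32.9/46.5 FPKM with FK866 and 108/61.1 FPKM with NMN. Cnot6l, a catalytic subunit, was at 40.9/21.9 FPKM with FK866, 66.6/68.6 FPKM with NMN, 21.5/18.4 FPKM in controls and 130.0 FPKM in early 2-cell embryos, and Cnot3 was at 1.8/5.66 and 13.7/8.34 FPKM. Cnot10 was lower, at 4.83 FPKM per library with FK866 and 1.6 FPKM with NMN. Lower members included genes for proteins that bind mRNA. Cpeb1, which holds poly(A) tails short, was at 10.6/20.4 FPKM with FK866 and 2.99/0 FPKM with NMN. Zar1l and Pabpn1l had 8.23/16.2 and 20.4/6.91 FPKM with FK866 and no reads with NMN. With a mean of at least 10 FPKM, 4 of 11 were higher and 0 lower, beside 16.8% and 13.7% of all genes at that level. In the subcortical maternal complex and zona list 4 of 11 were higher (36.4%) and 3 lower (27.3%; 2 and 2 without library A of FK866+NMN, 4 and 5 without library B, 4 and 0 without library A of FK866), and the median was -0.33. With a mean of at least 10 FPKM, 4 of 9 members were higher and 1 lower, with a median of 0.29. With reads in all 4 libraries, 4 of 7 were higher and 0 lower, with a median of 1.14. Apart from Ooep, Tle6 was at 35.3/44.2 FPKM with FK866 and 176/32.2 FPKM with NMN and Nlrp2 at 11.4/10.3 and 59/6.98 FPKM, so that 1 NMN library carried the difference. Nlrp5 was at 33.6/38.4 and 15/27.9 FPKM.

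Writers and erasers of active histone methylation had 0 of 18 members higher and 7 lower (38.9%), near the 33.3% of all genes (0 and 6 without library A of FK866+NMN, 2 and 9 without library B, 0 and 4 without library A of FK866). All 7 were separated between groups, beside 61.3% of all lower genes with values in all 4 libraries. As a share of the 18 members that was 38.9%, beside 20.6% of all genes. The median was -0.64, and it was -0.26 with at least 5 FPKM per library and -0.32 with a pseudocount of 5. Setd2, which methylates H3K36, was at 31.5/32.6 FPKM with FK866, 8.29/17 FPKM with NMN and 38.6/27.5 FPKM in controls. The subunits of H3K4 methyltransferases Setd1a (3.84/5.63 and 0.556/0.825 FPKM), Setd1b (4.03/2.18 and 0.313/1.32 FPKM) and Rbbp5 (6.25/2.94 and 0.0301/0 FPKM) were low throughout. Except for Setd2 these were transcripts under 10 FPKM, the class in which most lower genes lay. Of 11 genes of DNA methylation and demethylation 1 was higher (9.09%) and 5 lower (45.5%; 0 and 5 without library A of FK866+NMN, 2 and 3 without library B), beside 18.9% and 33.3% of all genes. Dnmt1, the maintenance methyltransferase, was at 7.65/14.6 FPKM with FK866 and 39.9/15.3 FPKM with NMN, and the de novo enzyme Dnmt3b was at 5.35/4.55 FPKM and had no reads with NMN. Tet1 was at 3.63/1.82 and 0.0764/0.339 FPKM and Tet2 at 1.76/3.66 and 1.51/0 FPKM. Polycomb and heterochromatin genes had 1 of 15 higher (6.67%) and 4 lower (26.7%; 1 and 4 without library A of FK866+NMN, 3 and 6 without library B). Rnf2, the ubiquitin ligase of polycomb complex 1, was at 47.7/56 FPKM with FK866 and 3.26/36.1 FPKM with NMN. Histone variants and chaperones had 0 of 14 higher and 4 lower (28.6%; 0 and 1 without library A of FK866+NMN, 0 and 7 without library B, 1 and 1 without library A of FK866), with Ssrp1 of the FACT complex at 32.2/53.1 and 0.0948/29.2 FPKM. Chromatin remodelers had 1 of 18 higher (5.56%) and 6 lower (33.3%; 1 and 3 without library A of FK866+NMN, 1 and 9 without library B). Chd7 was at 23/16.9 and 3.32/8.76 FPKM, Smarca5 at 25/25.9 and 5.54/17 FPKM, and Ruvbl2, the higher one, at 17.6/21.4 and 66.1/21.5 FPKM.

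In energy metabolism both directions occurred, as they did over all genes (18.9% higher and 33.3% lower). Of 19 genes of the TCA cycle and the malate-aspartate shuttle 4 were higher (21.1%) and 6 lower (31.6%; 3 and 10 without library A of FK866+NMN, 5 and 6 without library B), near the shares of all genes. Got2, the mitochondrial aspartate aminotransferase of the shuttle that carries electrons of NADH into mitochondria, was at 4.53/2.7 FPKM with FK866, 61.4/17.9 FPKM with NMN, 2.29/3.48 FPKM in controls and 26.2 FPKM in early 2-cell embryos, a log2 difference of 3.14. Slc25a12, the aspartate carrier of that shuttle, was at 0.0608/1.64 FPKM with FK866 and 4.26/4 FPKM with NMN. The dehydrogenase subunits Sdhb (7.18/4.29 and 0/0.0835 FPKM) and Sdhd (2.45/11.3 and 0.0959/0.607 FPKM) were lower, and Idh3b was at 2.58/4.74 FPKM and had no reads with NMN. Ogdh was at 6.38/11.3 and 3.33/1.64 FPKM. Of 16 genes of glycolysis and transport 2 were higher (12.5%) and 5 lower (31.25%; 3 and 5 without library A of FK866+NMN, 3 and 8 without library B). Ldhb, the lactate dehydrogenase chain that carries most of that activity's mRNA in these embryos, was at 923/948 FPKM with FK866 and 1969.5/654 FPKM with NMN, and overlapped. Ldha was lower, at 23.6/14.3 FPKM with FK866, 0.143/6.44 FPKM with NMN and 20.6/35.6 FPKM in controls. Of 42 subunits of oxidative phosphorylation 3 were higher (7.14%) and 12 lower (28.6%; 2 and 23 without library A of FK866+NMN, 11 and 13 without library B, 6 and 9 without library A of FK866). Cox6a1 was at 210.3/153 and 100.4/73.2 FPKM and Ndufa4 at 128/66.7 and 42/14.5 FPKM, whereas Ndufa13 was at 13.7/24 and 50.5/52.9 FPKM.

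Redox defence, DNA damage and cell cycle genes showed single genes rather than a common direction. Of 21 redox genes 4 were higher (19%) and 7 lower (33.3%; 3 and 6 without library A of FK866+NMN, 4 and 11 without library B, 6 and 4 without library A of FK866). These were nearly the shares of all genes, 18.9% and 33.3%. Nqo1, which uses NAD(P)H to reduce quinones, was at 4.74/1.43 FPKM with FK866 and 14.1/12.2 FPKM with NMN, while Gpx7 was at 9.43/11.9 FPKM and had no reads with NMN. Of 24 genes of the DNA damage and p53 response 3 were higher (12.5%) and 6 lower (25%; 4 and 8 without library A of FK866+NMN, 4 and 11 without library B). Mdm2, the p53 target that degrades p53, was at 40.3/44.1 FPKM with FK866, 0/16.3 FPKM with NMN and 26.5/40.9 FPKM in controls. Bax, which permeabilises mitochondria in apoptosis, was at 4.53/21.7 FPKM with FK866, 2.63/0.152 FPKM in controls and had no reads with NMN. Bbc3 (Puma) was at 5.62/4.23 FPKM with FK866 and 3.25/2.94 FPKM in controls, also with no reads with NMN. These 3 genes are among the 6 lower members, and the share of lower members in the list was below that of all genes. Mre11a, a nuclease of double-strand break repair, was higher, at 0/0.664 and 19.8/6.09 FPKM, with 1.14/3.61 FPKM in controls. Of 27 cyclin and mitotic kinase genes 4 were higher (14.8%) and 5 lower (18.5%; 3 and 4 without library A of FK866+NMN, 4 and 12 without library B). Nek2 was at 101/82.4 FPKM with FK866 and 21.8/65 FPKM with NMN, Cdk4 at 18.6/2.16 and 0/0.288 FPKM, and the checkpoint gene Bub3 at 3.36/9.06 and 35.9/19.9 FPKM. Of 17 pluripotency and lineage factors 2 were higher and 2 lower (1 and 6 without library A of FK866+NMN, 6 and 4 without library B), with Nr5a2 at 25.4/39.4 FPKM with FK866, 10.7/14.5 FPKM with NMN and 16.2/21.9 FPKM in controls and Klf4 at 65.7/179 and 85.8/129.9 FPKM.

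In protein turnover and membrane traffic 34.6% to 40% of members were lower, beside 33.3% of all genes. Of 26 proteasome genes 2 were higher (7.69%) and 9 lower (34.6%; 2 and 8 without library A of FK866+NMN, 4 and 13 without library B). Psmd7 was at 26.3/33.1 FPKM with FK866 and 21.4/1.07 FPKM with NMN, Psma1 at 27/23.4 and 10.4/0 FPKM, and Adrm1, a ubiquitin receptor, was higher, at 23.3/13.2 and 70.9/35.4 FPKM. Of 43 chaperone genes 8 were higher (18.6%) and 16 lower (37.2%; 9 and 16 without library A of FK866+NMN, 7 and 20 without library B). Hspb1 was at 73.8/106 and 27.6/44.1 FPKM, the ER chaperone Hspa5 at 5.49/15.6 and 0.196/0 FPKM, the mitochondrial chaperonin Hspd1 at 10.4/21.8 and 50.2/34.1 FPKM and Dnajb4 at 6.3/3.16 and 48.4/20.3 FPKM. Hspd1 and Dnajb4 were thus higher and the other pair lower. Of 40 genes of secretion and ER translocation 8 were higher (20%) and 16 lower (40%; 3 and 12 without library A of FK866+NMN, 8 and 22 without library B). Among them Sec61a1, the channel of the ER membrane, was at 3.48/3.65 FPKM with FK866 and 16.4/11.8 FPKM with NMN, and Sec31a of the COPII coat at 1.2/4.4 and 13.1/16.9 FPKM. Sec11a, a signal peptidase subunit, was lower, at 15/9.6 and 0.896/2.88 FPKM. Of 53 endosome, lysosome and autophagy genes 7 were higher (13.2%) and 20 lower (37.7%), although the median was 0.04 (7 and 21 without library A of FK866+NMN, 12 and 24 without library B). Ctsh was at 9.92/22.1 and 0.0788/0.332 FPKM, Ctsz at 11.7/12 and 0.164/4.41 FPKM, and the autophagosome gene Map1lc3a, which was higher, at 17.1/26.6 and 49.1/51.9 FPKM. Cathepsin genes Ctsh and Ctsz and the cathepsin inhibitor gene Cstb were all lower, and the cathepsin gene Ctss was higher.

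**Figure D5:**
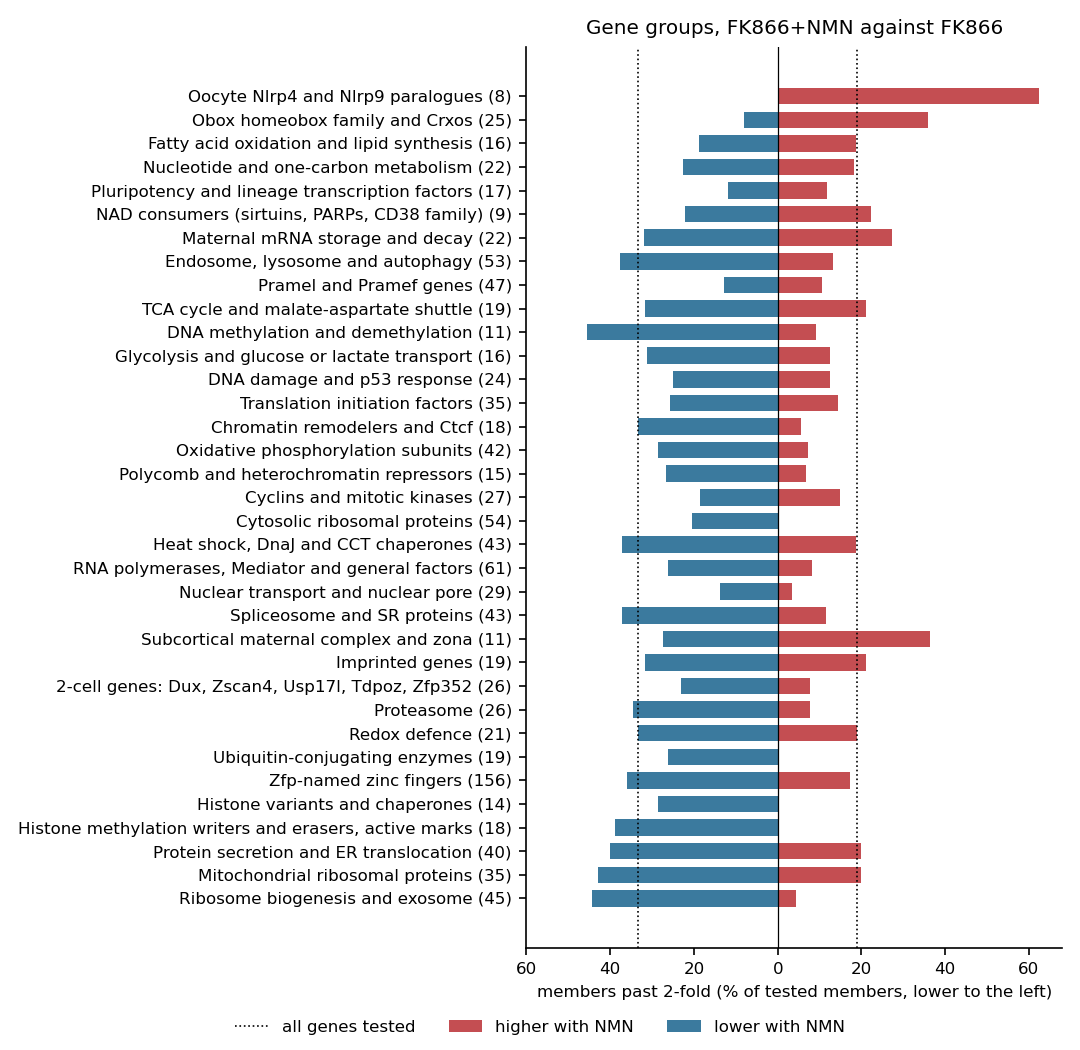
Share of expressed members past 2-fold higher (right) or lower (left) with NMN, in percent on the x axis, for the 35 gene groups with at least 8 expressed members, whose number is given in brackets, ordered by median difference. Dotted lines mark the shares of all genes tested (18.9% higher and 33.3% lower): the Nlrp4 and Nlrp9 group passes the line on the right most clearly, and ribosome biogenesis lies past the line on the left with few members on the right.

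The remaining groups stayed near or under the shares of all genes. Of 156 zinc finger genes named Zfp 27 were higher and 56 lower (29 and 64 without library A of FK866+NMN, 21 and 85 without library B). Zfp982 was at 21.7/17.3 FPKM with FK866 and 71.4/29.9 FPKM with NMN, with no reads in controls, and Zfp954 was at 56.9/29.8 and 0/17.4 FPKM. Of 19 ubiquitin-conjugating enzymes 0 were higher and 5 lower (1 and 8 without library A of FK866+NMN, 1 and 8 without library B), with Ube2j2 at 27.2/36.2 and 3.56/5.77 FPKM. Of 29 genes of nuclear transport 1 was higher and 4 lower (1 and 4 without library A of FK866+NMN, 3 and 9 without library B). Of 22 genes of nucleotide and one-carbon metabolism 4 were higher and 5 lower (4 and 5 without library A of FK866+NMN, 2 and 9 without library B), among them Ppat, the first enzyme of purine synthesis, at 59.1/55.8 FPKM with FK866, 11.4/3.81 FPKM with NMN and 76.7/84.4 FPKM in controls. Of 16 genes of fatty acid oxidation and lipid synthesis 3 were higher and 3 lower (5 and 5 without library A of FK866+NMN, 4 and 5 without library B, 6 and 4 without library B of FK866), with Cyp51 of cholesterol synthesis at 6.49/10.7 FPKM and no reads with NMN. Of 19 imprinted genes 4 were higher and 6 lower (3 and 7 without library A of FK866+NMN, 3 and 10 without library B), with Asb4 at 14/13.8 and 0.3/1.14 FPKM.

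RefSeq promoters were matched for 5313 of 6392 expressed protein-coding genes (83.1%), 953 of them higher and 1642 lower with NMN. A TATA box was in 9.03% of all these promoters, 11.4% of those of higher genes and 8.34% of those of lower genes. Among genes past 2-fold without overlap it was in 13.8% of 318 higher and 7.48% of 1150 lower ones, with no test of the difference. A GC box was in 66.6%, 60.7% and 64.1%, and a CCAAT box in 43.9%, 45.5% and 40.6%. Median GC content was 60.3% over all, 59% for higher and 60% for lower genes. The E-box (CACGTG) was in 11.2%, 9.55% and 10.5%, the cyclic AMP element (TGACGTCA) in 3.58%, 2.73% and 3.65% and the homeobox motif of the OBOX and OTX type (GGATTA) in 7.42%, 8.08% and 6.15%. A match says only that the letters are there.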

How the data were processed

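RNA was sequenced from late 2-cell embryos. The authors used Trim Galore for adapters, HISAT2 with mm10 as genome and featureCounts, and the deposited table holds FPKM. No tool version is given in the sources used here. The table has 1 column per group that is the sum of the FPKM of its 2 libraries, and its complete rows lie on part of the genome, other genes being not analysed here. Columns were therefore divided by 2. The difference was log2((FPKM-NMN + 1)/(FPKM-FK866 + 1)), a scale that understates the change of low genes, taken for genes that reached 1 FPKM per library in 1 of the columns. Genes past 2-fold were counted with no p. A test on counts had been foreseen in case the table held counts, which it did not.

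Whole reads of each library were recovered from the step that 1 read makes in a gene's FPKM, using exon lengths on GRCm38. The separated libraries were tested with limma 3.58.1 (R 4.3.3), with a trend, on log2(FPKM + 1) and Benjamini-Hochberg adjustment. Other steps used Python 3.11.15 and pandas 2.3.3. The separation of libraries, the calls by fold and limma were tested on simulated data, whose spread between libraries was not fitted to these data. The depth of the separated libraries lay between 5350013 and 8963343 mapped reads in the 2 groups compared. Alternatives were the pseudocount, the filter, undivided or centred columns and leaving out each library. Named genes were the 15 per direction with the widest gap between the nearest libraries of both groups (protein-coding, with a proper name), members of the lists past 2-fold without overlap, Duxf3, the Zscan4 genes and Sirt1, and up to 4 further abundant members of each list. Other list members past 2-fold, with overlap or without separated libraries, were named after their values were seen. The members and lists were chosen with earlier results of these data known. H3K27ac samples of the series were not used here.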

Additional observations from a re-analysis of the deposited data

How the results depend on the processing

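The 1623 higher and 2862 lower genes became 775 and 934 with a pseudocount of 5, and with at least 5 FPKM per library 1251 genes were lower. Requiring both libraries beyond both others left 465 higher and 1692 lower, and limma at an adjusted p under 0.05 left 0 and 0, with 542 at an unadjusted p under 0.05. Chosen after seeing the data, a mean of at least 10 FPKM gave 526 higher and 431 lower, and reads in all 4 libraries gave 576 and 497. Leaving out each library gave 1412 to 1832 higher genes, 2406 to 4155 lower genes and a median log2 difference of -1.12 to -0.13. The extreme of -1.12 came without library B of FK866+NMN. A pseudocount of 0.1, no filter, at least 20 reads, undivided columns and centring moved neither count by over 1.5 times. Without library A of FK866+NMN the log2 difference reversed for 4 named genes, and leaving out each library gave -0.57 to 2.34 for Nlrp2, -0.30 to 1.95 for Nlrp4b, -0.61 to 1.78 for Obox1 and -0.30 to 2.12 for Tle6. With undivided columns the median of the 2 cumulus markers was -0.25. The cause of these shifts was not tested. Over all lists and settings, 406 recomputed medians moved by less than the spread between the values with 1 library left out and 110 by more. No paired analysis was possible because the columns carry no replicate numbers. The genes with few reads limit what these libraries show: below a mean of 3 FPKM, 1294 of 1728 lower genes had no reads in either FK866+NMN library.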

Other observations

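The highest values of the table that were past 2-fold belonged to 3 pseudogenes on chromosome 1 that are nuclear copies of mitochondrial genes and can take reads of the mitochondrial genome. Gm29216 was at 16887 FPKM per library with FK866, 6747 FPKM with NMN, 5925 FPKM in controls and 3062 FPKM in early 2-cell embryos. Gm10925 was at 14962 FPKM with FK866, 7192 FPKM with NMN and 16290.5 FPKM in controls, and Gm28661 at 10439.9 FPKM with FK866, 4847 FPKM with NMN and 12326 FPKM in controls. The libraries of these genes could not all be separated, so the spread behind the differences is not known. Sephs2, the selenophosphate synthetase that supplies selenium for selenoproteins, was at 998 FPKM per library with FK866, 2557 FPKM with NMN, 962 FPKM in controls and 129 FPKM in early 2-cell embryos. The selenoprotein gene Selenos was lower (log2 difference of -1.38). These genes were chosen after their values were seen.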
